A study of Mus musculus with 8 samples.

Results

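Stroma 2 names the fibroblast-like cells of the mouse iris stroma in a single nucleus RNA-seq data set. Its members were taken here as the nuclei that the deposited annotation assigns to stroma 2 in the 3 control libraries, and there were 3040 of them among 14365 control nuclei. All 8 libraries together hold 34357 nuclei in 10 assigned cell types. Irises came from wild-type female albino mice of 6 to 8 weeks, and 5 or 6 irises were pooled for each library. The 3 control libraries were from untreated mice. The 3 constricted libraries were from mice given 5% pilocarpine, a muscarinic agonist, every hour for 6.5 hours in the light. The 2 dilated libraries were from mice given 5% phenylephrine, an agonist of alpha-1 adrenergic receptors, and 1% cyclopentolate, a muscarinic antagonist, every hour for 6.5 hours in the dark. The dissection took along a variable part of the ciliary body, and light differed together with the drugs, so the effects of light and drug cannot be told apart.

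The iris stroma is the loose connective tissue in front of the iris muscles and pigment epithelium. Its fibroblasts derive largely from the cranial neural crest, lie in a collagen and proteoglycan matrix that aqueous humor enters freely, and surround the vessels, nerves and melanocytes. Fibroblasts in general are recognized by the PDGF receptor Pdgfra, by fibrillar collagens and by the small leucine-rich proteoglycans decorin and lumican. In the anterior eye, the transcription factors Foxc1, Lmx1b and Tfap2b act in the periocular mesenchyme during development.

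The stroma 2 nuclei numbered 277, 1317 and 1446 in control libraries 1, 2 and 3, with 827302, 3197257 and 3533247 unique molecular identifiers (UMIs), each of which stands for 1 captured RNA molecule. Their median was 2425 UMIs per nucleus, below the medians of all other types except the endothelial cells (1957) and leukocytes (1998). Control library 1 was the smallest of the 3, with 1479 nuclei and 5189437 UMIs against 6494 nuclei and 20000682 UMIs in control library 3, so its levels carry the largest counting error. Some cell barcodes occurred in more than 1 library. Control library 1 and dilated library 1 had 63 in common, which is 4.26% of the smaller library, and 11 of these were stroma 2 in both. In control libraries 1, 2 and 3, 13, 14 and 11 stroma 2 nuclei had a barcode that occurred in any other library. The number of set apart genes, the share of stroma 2 among nuclei, the number of overdispersed genes and the numbers of genes called between conditions were recomputed without these nuclei.

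Levels are UMIs of a gene per 1000000 UMIs (CPM) of the summed stroma 2 nuclei of a library, given as the mean ± SD of the 3 control libraries. Each other type is given by its level over the pooled control nuclei, and ratios are pooled stroma 2 levels over those of the next highest of the other 9 types. Cell types had been clustered on these same UMIs, so the differences between types are described without a test. A sum over nuclei cannot tell more RNA per nucleus from more nuclei that hold the RNA, and shares of nuclei are therefore given for the markers. Levels were not scaled to gene length, and different genes are not ranked against each other.

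The label was checked against the 4 genes that mark these cells, and each was highest in stroma 2. *Tfap2b*, an AP-2 transcription factor gene, was at 2366, 2797 and 2930 CPM in the 3 control libraries, against 193 CPM in leukocytes, the next type. *Glis1*, a Krüppel-like zinc finger gene, was at 1458, 1223 and 1422 CPM, against 81.2 CPM in leukocytes. *Pdgfra* was at 603, 1043 and 1071 CPM, against 62.6 CPM in endothelial cells. For these 3 genes each library of stroma 2 was above every other type of that library, and *Pdgfra* was lowest in control library 1. *Dkk2*, a secreted regulator of Wnt signaling, was at 1164, 1276 and 1382 CPM and was shared more widely. Its level was 490 CPM in endothelial cells and 434 CPM in sphincter 2 muscle, so that stroma 2 exceeded the next type 2.68 times only.

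**Figure D1:**
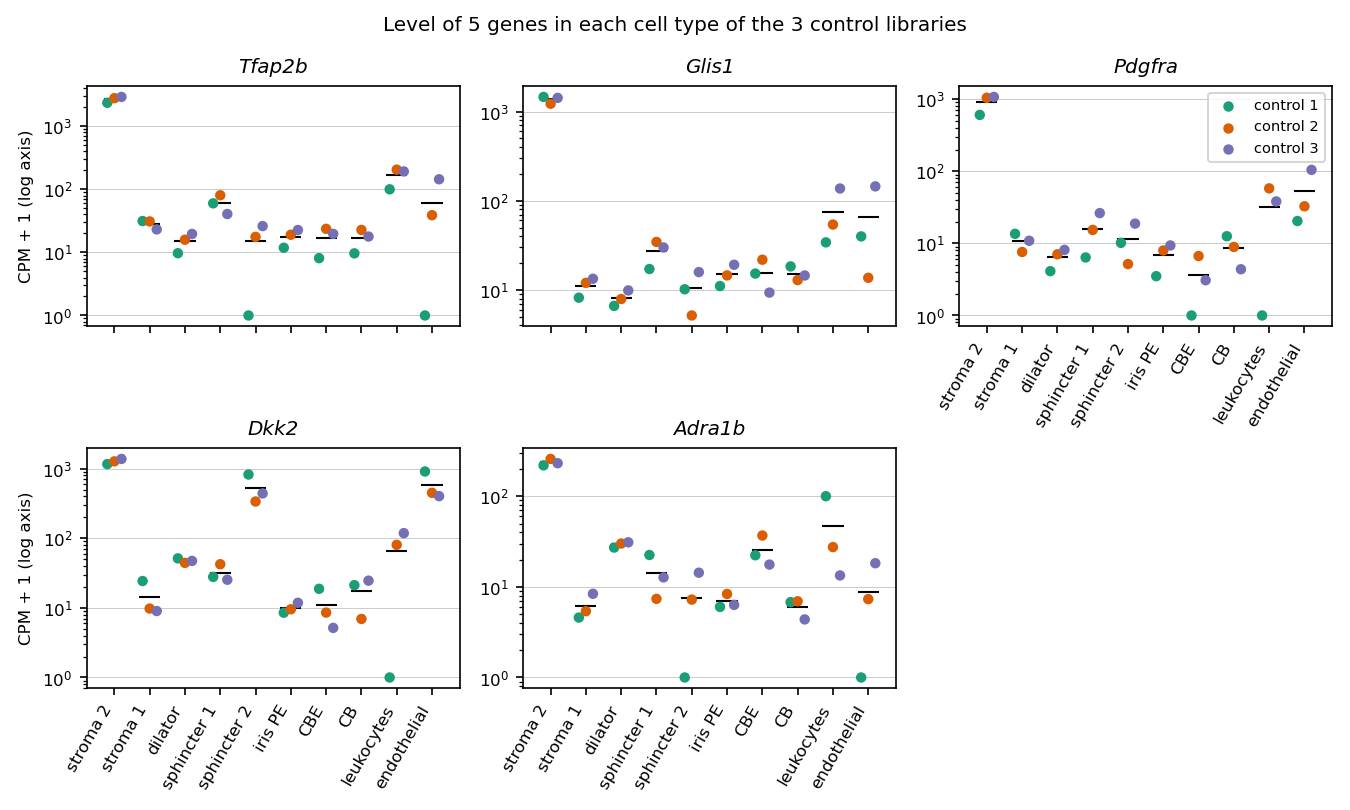
Levels of *Tfap2b*, *Glis1*, *Pdgfra*, *Dkk2* and *Adra1b* in each cell type of the 3 control libraries, as CPM + 1 on a log axis; each point is 1 library and each line the mean of the 3. Stroma 2 is highest for each of these genes, and for *Dkk2* endothelial cells and sphincter 2 come closest to it.

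Most single nuclei carried these markers. At least 1 UMI of *Tfap2b* was found in 95.3% of stroma 2 nuclei, of *Glis1* in 85.3%, of *Dkk2* in 76.4% and of *Pdgfra* in 72.0%. To compare types of different depth, each nucleus was thinned to 1000 UMIs, which left out 119 of the 3040 stroma 2 nuclei. The share with *Tfap2b* was then 86.0%, against 1.74% to 5.62% in the other types, and that with *Glis1* was 65.2%, against 0.819% to 4.92%. *Pdgfra* was then found in 50.6% of stroma 2 nuclei, against 0.348% to 3.11% elsewhere. *Dkk2* was found in 56.9%, but also in 32.4% of endothelial nuclei. At full depth, 96.9% of stroma 2 nuclei had at least 2 of the 4 markers and 47.8% had all 4. Only 10 nuclei had none. At least 2 markers were found in 1.006% of stroma 1 nuclei and in 6.04% of endothelial nuclei, the highest of the other types. UMIs from free RNA would enter nuclei of all types, and these shares in other types are the background against which the stroma 2 shares are to be read.

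Across all genes, 128 of 22873 were set apart in stroma 2, which means a pooled level of at least 50 CPM and at least 4 times that of every other type. They are 0.56% of the genes in the tables and 7.82% of the UMIs of stroma 2. All 128 were above every other type in each of the 3 control libraries. As the rule used the pool of these same libraries, it largely fixes this agreement. Their ratios ran from 2.00 to 5.07 on the log2 scale with a median of 3.09, and 69 were at least 8 times and 18 at least 16 times the next type. Just inside the limit was *Hs3st3a1*, a heparan sulfate sulfotransferase gene, at 4.09 times. Just outside were *Ctgf*, a matricellular growth factor gene, at 3.98 times and *Dpyd*, a pyrimidine catabolism gene, at 3.97 times. Without the nuclei whose barcode occurred in another library, 127 genes were set apart, and all 127 were among the 128.

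The next type was endothelial cells for 35 of the 128 genes and leukocytes for another 35. These were the smallest types, with 149 and 193 control nuclei, and a doublet caller marked 12.081% and 9.85% of their nuclei and 9.93% of sphincter 1 nuclei against 0.757% of stroma 2. The summed level of the 128 genes was 7.33% of the stroma 2 level in endothelial cells and 7.21% in leukocytes, and 5.29% and 3.36% without the marked nuclei. In endothelial cells it was 5.63%, 4.60% and 10.2% in control libraries 1, 2 and 3, so control library 3 raised the pooled value. In the other types it ran from 3.30% in stroma 1 to 5.92% in sphincter 1, which was at 4.66% without the marked nuclei. The part of doublets and free RNA in these levels was not tested.

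The genes with the largest ratios come from several classes. *Rit2*, a Ras-like small GTPase gene mainly known from neurons, was at 717, 892 and 1082 CPM and 33.5 times above endothelial cells. *Aox3*, an aldehyde oxidase gene, was at 441, 643 and 677 CPM and 24.4 times above endothelial cells. *Plcxd3*, a gene for a phospholipase C-like protein, was at 2030, 2546 and 2706 CPM and 19.2 times above leukocytes. For these 3 genes the lowest value was that of control library 1. *Ndnf*, which encodes a secreted neurotrophic protein, was at 288, 339 and 320 CPM and 17.8 times above endothelial cells. *Dmgdh*, a mitochondrial dimethylglycine dehydrogenase gene, was at 238, 430 and 440 CPM and 17.4 times above sphincter 2. *C1qtnf7*, a gene for a secreted C1q/TNF-like protein, was at 376, 376 and 303 CPM and 19.5 times above leukocytes. *Kcnq3*, a voltage-gated potassium channel gene, was at 829, 758 and 905 CPM and 16.5 times above leukocytes. The spread among libraries was small beside each of these ratios. *C7*, the terminal complement gene, was at 114, 175 and 199 CPM, with 3 UMIs in endothelial cells, so its ratio of 22.9 has a 95% counting interval of 7.83 to 111. This interval covers counting error only. Predicted or non-coding genes were part of this set. *Gm43824*, a long intergenic non-coding RNA gene, was at 2241, 2420 and 2480 CPM and 24.6 times above leukocytes, and *Gm21949* was at 490 ± 16.3 CPM and 20.6 times. *Mup2* was at 80, 189 and 218 CPM and 18.3 times above endothelial cells, but it belongs to a family of near-identical urinary protein genes, and how shared reads were split makes its identity uncertain.

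Several set apart genes lay side by side in the genome. Of the 128, 127 were matched by name to the mm10 gene models, 115 of them protein coding, and 22 pairs lay within 500 kb of each other, 8 of them overlapping. *Wnt6* (chr1:74771892-74785322, plus strand) and *Wnt10a* (chr1:74791516-74804179, plus strand) are 6.19 kb apart. *Dcn* (chr10:97479609-97518143, plus strand) and *Lum* (chr10:97565128-97572703, plus strand) are 47.0 kb apart. Others were antisense pairs, *Tbx3os1* with *Tbx3*, *Igf1os* with *Igf1* and *Gm15866* with *C1qtnf7*. Nuclear reads include introns, and 36 of the 128 genes overlap another gene on the same strand, so their UMIs may be shared with that gene.

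Since *Tfap2b* encodes a DNA-binding protein and was set apart, the 250 bases before each start site in RefSeq (GRCm38.p6) were searched for the letters of the textbook AP-2 motif on both strands. The AP-2 letters GCCNNNGGC, which read the same on both strands and whose matches may overlap each other, were found in 15 of the 83 set apart genes that have a promoter in the table. That is 18.1%, against 17.4% of all 15471 promoters and 22.9% of those of genes at 50 CPM or more in stroma 2. The share among set apart genes was thus close to that of all promoters, and a match is a description of letters, not a binding site. For *Glis1*, *Wnt4*, *Wnt6*, *Aldh1a2* and *Podn*, which are set apart genes described here by role, stretches that hold the AP-2 letters are shown, for *Podn* 1 of 2, because they show how the letters sit in these promoters, with the match in capitals and up to 10 bases on each side, each read 5′ to 3′ on the strand of the gene.
Glis1, chr4:107434490-107434518, plus strand: ccctcgagccGCCATTGGCttggtccggc
Glis1, chr4:107434673-107434701, plus strand: gagccgctgcGCCCGCGGCgaggtgagaa
Wnt4, chr4:137277423-137277451, plus strand: tcctcggcccGCCCCCGGCccgccccgcc
Wnt6, chr1:74771870-74771891, plus strand: tcccacccccGCCCCCGGCtct
Aldh1a2, chr9:71215580-71215608, plus strand: tcgcggggctGCCATCGGCcagcgcggtc
Podn, chr4:108032090-108032118, minus strand: caagcccggcGCCGTGGGCtcggccctcc

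Gene lists by role describe what sort of cell these levels come from. As a background, 10.7% of all genes in the tables were highest in stroma 2 among the 10 types. Many of these genes are barely detected. Of the 4074 genes at 50 CPM or more in stroma 2, 787 were highest there and 128 set apart, which are larger shares. Of 27 general fibroblast markers, 18 were highest in stroma 2 and 8 were set apart. Of 26 collagen genes outside basement membranes, 16 were highest in stroma 2 and 4 were set apart. Of 60 transcription factor genes of the periocular mesenchyme and of fibroblasts, 27 were highest and 8 set apart, and of 54 proteoglycan and matrix glycoprotein genes, 18 and 7. Shares nearer to these backgrounds were seen for basement membrane genes with 4 of 22, adhesion genes with 10 of 59, and axon guidance genes and solute carriers and channels with 9 of 61 each. The lists were drawn up for the tissue with earlier results of these data known, and the counts carry no test. Genes such as *Col3a1*, *Dcn* and *Lum* are on more than 1 list. The markers *Tfap2b*, *Glis1*, *Pdgfra* and *Dkk2* are list members too. The counts are thus independent neither of each other nor of the stroma 2 label.

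**Figure D2:**
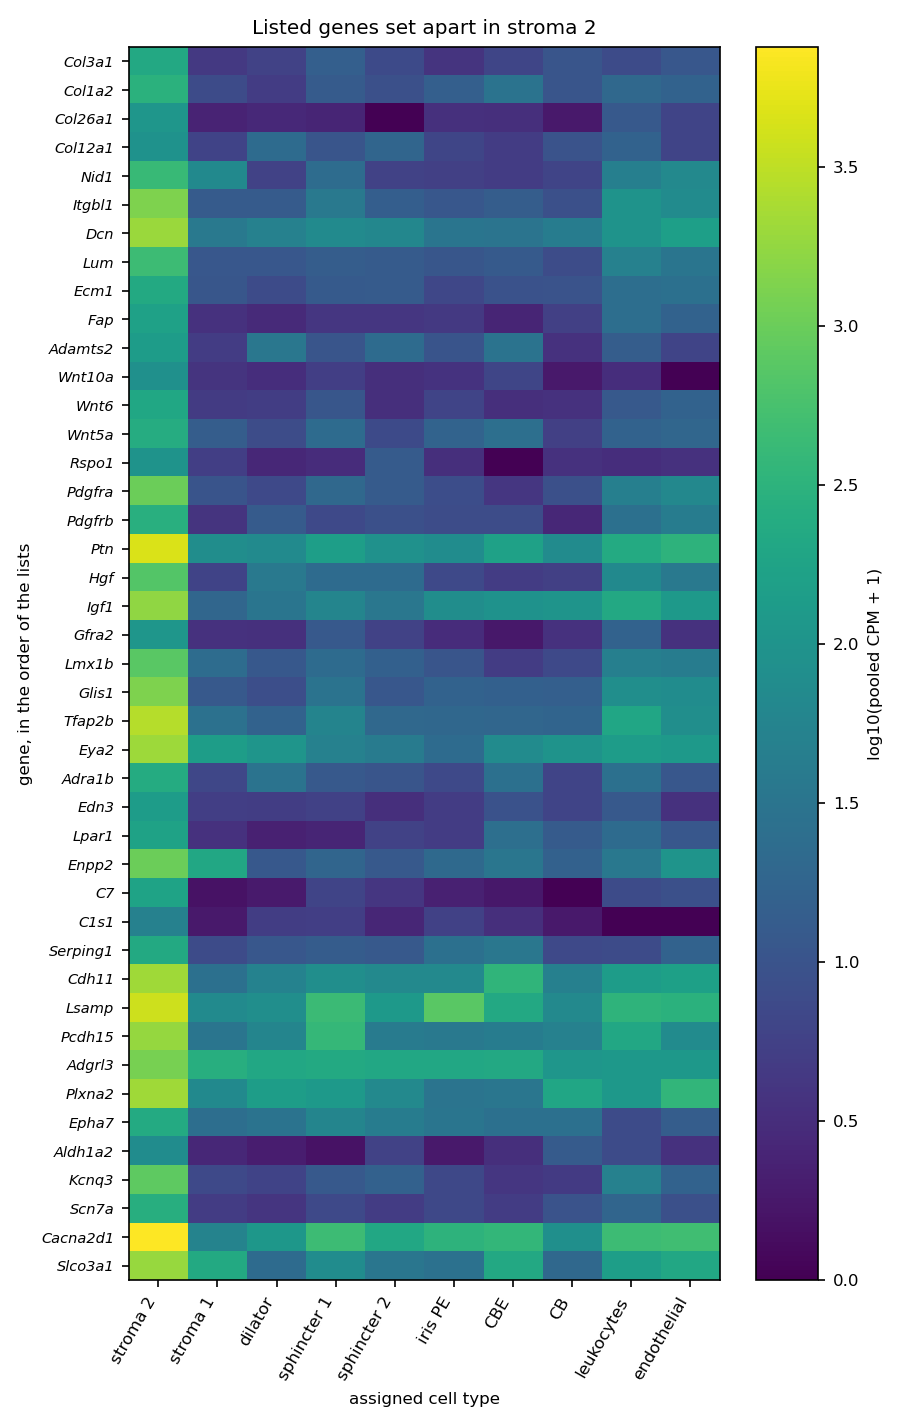
Pooled control levels of listed genes set apart in stroma 2, one per line in the order of the lists, across the 10 assigned cell types, colored by log10(CPM + 1). The stroma 2 column is the brightest on every line, as the rule fixes, and *Lsamp* in the iris pigment epithelium, at 762 CPM, is among the brightest fields outside it.

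Fibrillar collagen genes of types I and III differed in how far they were particular to stroma 2. *Col3a1* was at 313, 212 and 209 CPM, 15.8 times above sphincter 1. *Col1a2* was at 355, 299 and 295 CPM, 10.6 times above the ciliary body epithelium. *Col1a1*, whose chain assembles with that of *Col1a2* in type I collagen, was at 235, 145 and 134 CPM and only 0.37 on the log2 scale above the iris pigment epithelium. In all 3 genes control library 1 was the highest. *Col26a1* was at 116 ± 23.7 CPM and 9.78 times above leukocytes, and *Col12a1*, of a fibril-associated collagen, was at 99.2 ± 17.9 CPM and 4.29 times above the dilator muscle. *Col5a2*, which takes part in starting collagen fibrils, was at 361 ± 17.4 CPM but only 3.47 times above stroma 1. *Col23a1*, a transmembrane collagen gene, was shared with the ciliary body epithelium, at 1768 ± 118 CPM against 1824 CPM there.

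Small leucine-rich proteoglycan genes were among those set apart. *Dcn*, which encodes the collagen-binding proteoglycan decorin, was at 1764, 1829 and 2186 CPM and 13.1 times above endothelial cells. *Lum*, for lumican, was at 430, 411 and 488 CPM and 8.90 times above leukocytes. *Bgn*, for biglycan, was at 205, 163 and 194 CPM and 6.65 times above the iris pigment epithelium, and *Podn*, for podocan, was at 72.5, 64.1 and 75.6 CPM and 5.93 times above sphincter 2. The spread of each gene over the libraries was small beside its distance to the next type. The other matrix genes set apart were *Itgbl1* at 1152, 1371 and 1350 CPM, *Ecm1* at 193, 210 and 249 CPM, and *Smoc1* at 106, 92.0 and 95.7 CPM. *Abi3bp*, a matrix protein gene, was highest in stroma 2 at 1760 ± 132 CPM but reached 663 CPM in sphincter 1. In the basement membrane, *Nid1*, whose product nidogen links laminin and collagen IV, was the one gene set apart. It was at 680.5, 467 and 301 CPM in control libraries 1, 2 and 3, so that its highest value was over 2 times its lowest, and it was 6.13 times above stroma 1 when pooled. Of the matrix proteases and inhibitors, *Fap*, a membrane protease gene of activated fibroblasts, was at 162 ± 9.56 CPM and 6.80 times above leukocytes, and *Adamts2*, which trims procollagen, was at 149 ± 24.3 CPM and 4.17 times above the dilator muscle.

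Growth factor pathways were described by list, beside the 10.7% of all genes highest in stroma 2 and the 0.56% set apart. Of 54 growth factor and cytokine genes, 13 were highest and 4 were set apart. Of 7 PDGF genes, 2 were highest, and both were set apart. *Pdgfrb*, the other PDGF receptor gene, was at 201, 308 and 277 CPM and 6.75 times above endothelial cells, so both PDGF receptor genes were set apart. Of the other 5 genes on the PDGF list none was highest in stroma 2. *Pdgfd* was at 293 ± 27.4 CPM against 523 CPM in the iris pigment epithelium. *Ptn*, which encodes the heparin-binding cytokine pleiotrophin, was at 4407, 4325 and 4865 CPM and 14.5 times above endothelial cells. *Igf1* was at 2066, 1654 and 1626 CPM and 7.84 times above leukocytes, and *Hgf*, for hepatocyte growth factor, was at 694, 673 and 685 CPM and 10.0 times above leukocytes. *Ptn* and *Hgf* varied little over the libraries and *Igf1* was highest in control library 1. *Gfra2*, a GDNF-family co-receptor gene, was at 109, 110 and 102 CPM. Of 40 TGF-beta and BMP pathway genes, 9 were highest in stroma 2 and none was set apart. The receptor gene *Tgfbr2* was at 252 ± 14.1 CPM against 783 CPM in leukocytes, and *Tgfbr3* at 280 ± 23.6 CPM against 832 CPM in the iris pigment epithelium.

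Genes of the Wnt pathway, in which secreted Wnt proteins act through Frizzled receptors and R-spondins strengthen the signal, had 19 of 56 highest in stroma 2 and 5 set apart. Of the ligands, *Wnt6* was at 201, 196 and 212 CPM, *Wnt5a* at 195, 239 and 270 CPM, *Wnt10a* at 103, 67.3 and 105 CPM and *Wnt4* at 59.2, 105 and 133 CPM. On the log2 scale *Wnt10a* was 4.04, *Wnt6* 3.70, *Wnt5a* 3.33 and *Wnt4* 2.52 above the next type. *Wnt6* was the most even of the 4 and *Wnt4* the least. *Rspo1* was at 74.9, 91.3 and 106 CPM and 8.13 times above sphincter 2. *Rspo2* was at 723 ± 147 CPM and highest in stroma 2, but the dilator muscle had 506 CPM.

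Transcription factor genes of the periocular mesenchyme included 8 set apart. *Lmx1b*, a LIM homeodomain gene, was at 717, 738 and 814 CPM and 16.7 times above leukocytes. *Eya2*, a transcriptional cofactor gene of the eyes absent family, was at 1869, 1928 and 2136 CPM and 14.1 times above stroma 1. *Lmx1b* and *Eya2* were even over the libraries. *Tbx3*, a T-box gene, was at 97.8 ± 29.5 CPM with 3 UMIs in endothelial cells, a ratio of 13.9 with an interval of 4.76 to 67.8. *Alx4*, a paired-type homeodomain gene, was at 56.3 ± 0.462 CPM with 2 UMIs there, a ratio of 10.8 with an interval of 2.96 to 89.1. *Zfhx4*, a zinc finger homeobox gene, was at 1628 ± 132 CPM and 5.47 times above the ciliary body epithelium. *Foxc1* was highest in stroma 2 at 120 ± 6.89 CPM but only 2.73 times above endothelial cells, and *Prrx1*, a homeobox gene of mesenchyme, was at 225 ± 24.1 CPM and 3.19 times above sphincter 1. Of the disease genes of glaucoma and the anterior segment, 8 of 32 were highest in stroma 2, and *Lmx1b* was among those set apart. *Tcf21*, a fibroblast gene of other organs, had no UMI among the 7557806 of stroma 2, a count that allows up to 3 UMIs, and *Foxd1*, a forkhead gene, and *Twist2*, a gene of dermal fibroblasts, had 2 UMIs each.

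The list of receptor genes through which the iris is innervated had 15.4% of its members highest in stroma 2 and 7.69% set apart. Over all genes these shares were 10.7% and 0.56%. Of 13 adrenergic and muscarinic receptor genes, *Adra1b*, for an alpha-1 adrenergic receptor, and *Adra2a*, for an alpha-2 adrenergic receptor, were highest in stroma 2. *Adra1b* was the one set apart, at 219, 258 and 231 CPM and 8.25 times above the dilator muscle, and 18.8% of stroma 2 nuclei thinned to 1000 UMIs held it against 0.520% to 2.94% of the other types. The muscarinic receptor gene *Chrm3* was at 3.63, 20.6 and 14.7 CPM, against 3939 CPM in sphincter 1. Among other receptor and ligand genes of the anterior eye, *Edn3*, for endothelin 3, was at 176, 135 and 134 CPM and 12.7 times above leukocytes. *Lpar1*, a lysophosphatidic acid receptor gene, was at 219, 151 and 174 CPM and 6.81 times above the ciliary body epithelium, and *Enpp2*, for autotaxin, which makes its ligand, was at 845, 950 and 1091 CPM and 4.78 times above stroma 1. Receptor and ligand-making enzyme were thus both set apart.

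The remaining lists held single genes of interest. *Cacna2d1*, an auxiliary calcium channel subunit gene, was at 6312, 7018 and 8341 CPM and 15.3 times above endothelial cells. *Scn7a*, an atypical sodium channel gene, was at 209, 261 and 289 CPM and 15.3 times above leukocytes, and *Slco3a1*, an organic anion transporter gene, was at 1579, 1752 and 2132 CPM and 8.60 times above stroma 1. For all 3 genes each library of stroma 2 was above every other type, as for every set apart gene. Complement genes of the list were set apart in 3 of 32 cases, *C7*, *C1s1*, a protease gene of the first complement component, at 50.5 ± 1.37 CPM and *Serping1*, the C1 inhibitor gene, at 221 ± 19.7 CPM. Adhesion genes set apart were *Cdh11*, a mesenchymal cadherin gene, at 2824, 1961 and 2151 CPM, *Lsamp*, for a cell surface protein of the nervous system, at 3672, 4032 and 3732 CPM, the protocadherin gene *Pcdh15* and the latrophilin gene *Adgrl3*, each between 4.45 and 6.22 times above the next type. Of the axon guidance genes, the semaphorin co-receptor gene *Plxna2* was at 2049, 2107 and 2203 CPM and 5.96 times above endothelial cells, and the ephrin receptor gene *Epha7* was at 225 ± 18.8 CPM and 4.12 times above sphincter 1. Of the retinoid genes, *Aldh1a2*, which makes retinoic acid, was at 87.6 ± 31.1 CPM and 6.21 times above the ciliary body, whereas *Rora* and *Rarb* were within 1.07 times of the next type.

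Genes much lower in stroma 2 than in all 9 other types were also sought. With at least 20 CPM in each other type and a level in stroma 2 at least 4 times below the lowest of them, 8 genes were found. *Arap2*, a regulator of small GTPases, was at 6.04, 9.38 and 8.21 CPM, 8.33 times below the ciliary body epithelium as the lowest other type. *Ppargc1a*, a coactivator gene of mitochondrial biogenesis, was at 15.7, 7.82 and 8.49 CPM, 6.34 times below leukocytes, and *Iqgap2*, a scaffold gene, was at 10.9, 21.9 and 18.4 CPM, 6.28 times below sphincter 1. The others were *St3gal6*, *Tpd52*, *Synpr*, *Rab27a* and *Lpl*, between 4.02 and 5.31 times below. At these levels each value rests on few UMIs in control library 1.

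Stroma 1, the other stromal type, carries melanocyte genes. The squared correlation of log10(1 + CP10k), where CP10k is UMIs per 10000, across genes was 0.610 with endothelial cells, 0.589 with sphincter 1, 0.541 with the ciliary body, 0.514 with stroma 1 and 0.505 with leukocytes. The order of the types differed between libraries, since endothelial cells were at 0.501 in control library 1 and leukocytes at 0.513 in control library 2, against 0.522 and 0.504 for stroma 1. Between control libraries of stroma 2 it was 0.962, 0.962 and 0.992. These values describe the libraries, since genes share depth and nuclei and are not independent, and the smaller types have noisier levels. Of 4888 genes at 50 CPM or more in the higher of both stromal types, 541 were at least 4 times higher in stroma 2 and 430 at least 4 times higher in stroma 1. A further 3217, or 65.8%, were within 2 times.

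**Figure D3:**
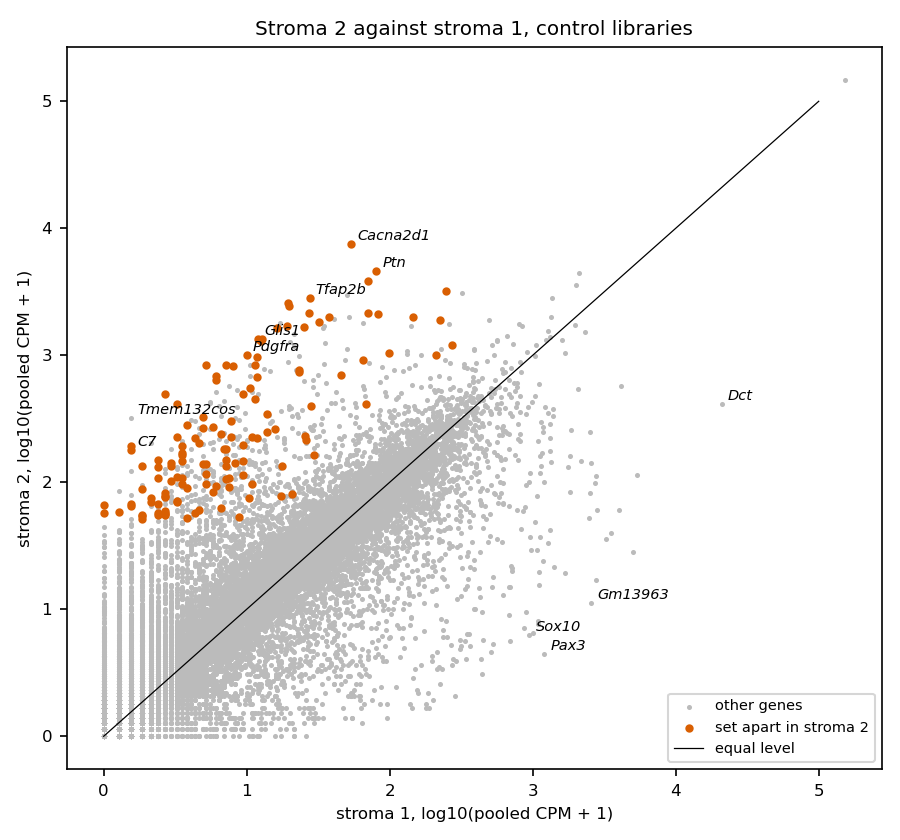
Level of each gene in stroma 2 against stroma 1, as log10(CPM + 1) of the pooled control nuclei; each point is a gene, orange points are the set apart genes and the line marks equal levels. The set apart genes lie above the line, as the rule fixes, and *Pax3*, *Sox10* and *Dct* lie below it.

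The largest differences between the stromal types had levels near 0 on the low side. *Gm21949* was 293 times, *Pde3a*, a phosphodiesterase gene at 699, 827 and 870 CPM in stroma 2, 197 times, *Dmgdh* 183 times and *Abcb1a*, a drug efflux transporter gene at 183, 200 and 209 CPM, 179 times higher in stroma 2. *Pde3a* and *Abcb1a* were not particular to stroma 2 to this degree, since *Pde3a* was 4.11 times above sphincter 1 and *Abcb1a* was higher in endothelial cells, at 639 CPM. In the other direction, *Pax3*, a neural crest and melanocyte transcription factor gene, was at 1216 ± 48.7 CPM in stroma 1 and 349 times higher than in stroma 2. *Sh3tc2*, a Schwann cell endosome gene, was 270 times and *Tbx4*, a T-box gene, 224 times higher in stroma 1.

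Markers of other types were low in stroma 2. The 9 markers of stroma 1 summed to 708, 766 and 693 CPM in the 3 libraries, 2.29% of their level in stroma 1, with *Dct*, a melanin synthesis gene, giving the most UMIs with 409 CPM. The 7 endothelial markers summed to 332, 277 and 250 CPM, 3.83% of their level in endothelial cells, with *Cldn5* at 117 CPM. The 8 leukocyte markers summed to 237, 131 and 138 CPM, 2.71% of theirs, with *Mertk* giving the most UMIs at 131 CPM. None of these lists had a member highest in stroma 2 or at 0. The lists of the muscle, pigment epithelium and ciliary body types reached 0.874% to 4.61% of their own types. Of cells that the tissue or dissection could add, 4 corneal endothelium markers summed to 336 CPM, with *Col8a2* at 164 CPM, and the 6 Schwann cell markers to 75.0 CPM with *Pmp22* giving the most UMIs. The 6 pericyte markers summed to 57.6 CPM with *Higd1b* at 0 UMIs. The keratocyte markers summed to 800 CPM, against 6005 CPM in the ciliary body epithelium, and of these *Lum* made 449 CPM, and *Aldh3a1*, the crystallin gene of keratocytes, had no UMI. Trabecular meshwork markers, 5 in all, summed to 396, 347 and 307 CPM with *Mgp*, for matrix Gla protein, giving the most UMIs at 185 CPM. The sum was highest in stroma 2 among the 10 types, but only 2 of the 5, *Edn3* and *Myoc*, were, and *Mgp* itself was higher in endothelial cells. *Myoc* was at 9.67, 1.88 and 7.64 CPM, only 1.04 times above endothelial cells, which had 2 UMIs. It was highest in 2 of the 3 control libraries.

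Stroma 2 nuclei were not all alike. Among 1883 genes at 100 CPM or more in control library 2, overdispersion, the part of the variance between nuclei beyond counting error divided by the squared mean, had a median of 0.397, and 307 genes were above 1. Of these 307, 246 were above 1 in control library 3 and 229 in control library 1. Across genes the Spearman correlation of overdispersion was 0.836 between control libraries 2 and 3 and 0.679 between control libraries 2 and 1. These are descriptions across genes, which share the nuclei of each library.

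Among the 10 genes with the highest values in control library 2, some varied in all 3 libraries and some did not. *Cemip*, which encodes a hyaluronan-degrading protein, had 26.9, 17.7 and 19.0 in control libraries 1, 2 and 3. *Vcan*, for the hyaluronan-binding proteoglycan versican, had 8.72, 11.8 and 15.5, and *Rmst*, a long non-coding RNA gene, had 27.7, 20.5 and 14.4. *Nav2*, a gene of neuronal migration, had 9.03 to 9.77. These 4 genes were uneven among the nuclei of every library. *Nav3* had 0.347, 16.9 and 9.87 and was thus even in control library 1. *Mgp* had 10.4, 63.1 and 14.1, but 1 nucleus with 147 UMIs carried much of it in control library 2, where the value was 13.9 without that nucleus. *Eln*, for elastin, fell likewise from 8.79 to 2.45. *Dct* had 0.539, 12.8 and 4.39, and without marked doublets it was 2.40 in control library 2. Without doublets *Wdr17* fell from 8.68 to 3.45 there, and *Mgll* was at 1.77. The values of the markers ran from 0.32 to 0.58 for *Tfap2b*, from 0.52 to 0.73 for *Glis1*, from 1.07 to 1.34 for *Pdgfra* and from 1.37 to 2.13 for *Dkk2* over the 3 libraries, so *Pdgfra* and *Dkk2* were among the genes above 1. Without the nuclei whose barcode occurred in another library, 308 genes were above 1 in control library 2.

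**Figure D4:**
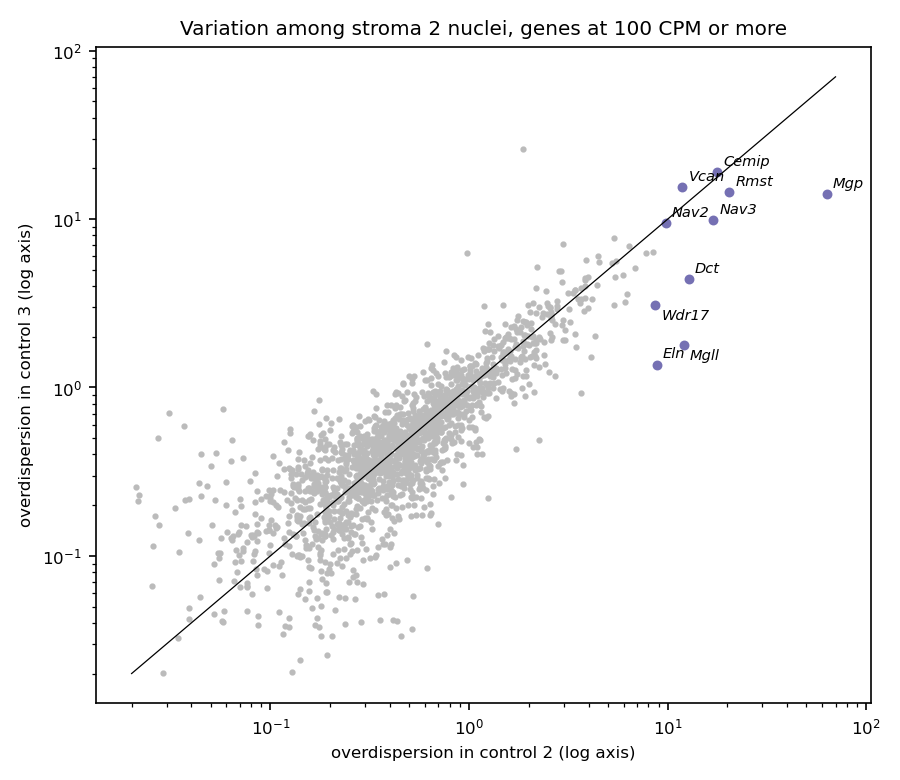
Overdispersion between stroma 2 nuclei in control library 3 against control library 2 on log axes; each point is a gene at 100 CPM or more, the line marks equal values, and 129 genes at or below 0.02 are not drawn, which leaves 1754. *Vcan*, *Cemip* and *Rmst* are high in both libraries, whereas *Eln* and *Mgll* lie well below the line.

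Pairs of these genes were weakly related across nuclei. The correlation of *Cemip* with *Vcan* was 0.404, 0.183 and 0.165 in control libraries 1, 2 and 3, and that of *Nav3* with *Vcan* was 0.018, 0.320 and 0.411. *Dct* and *Mgll* had 0.428, 0.458 and 0.253, which fell to 0.230, 0.282 and 0.026 without marked doublets, while the other pairs named here moved little. *Vcan* and *Tfap2b* had −0.095, −0.144 and −0.145. In sparse counts such values describe the nuclei of a library, which share depth, and no subtypes were defined from them.

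The share of stroma 2 among nuclei was 18.7%, 20.6% and 22.3% in the control libraries, 18.1%, 18.6% and 19.3% in the constricted libraries and 18.3% and 19.3% in the dilated libraries. The mean was 20.5% ± 1.77 (SD, n = 3), 18.7% ± 0.631 (n = 3) and 18.8% ± 0.681 (n = 2). The differences of −1.88 and −1.75 percentage points from control did not pass a two-sided exact permutation test, with p = 0.2 and p = 0.3, where 0.1 is the smallest p these sample numbers allow. The share of ciliary body and ciliary body epithelium nuclei in the denominator ran from 2.86% to 14.9% of a library. Without these nuclei in the denominator the differences from control were −1.78 and −0.98 percentage points, with exact permutation p = 0.2 and p = 0.4. Without the nuclei whose barcode occurred in another library they were −1.87 and −1.75 percentage points.

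The treated libraries served to show how far the identity described above held under both treatments. UMIs of stroma 2 were summed per library and tested by edgeR's quasi-likelihood test with Benjamini-Hochberg adjustment over 12788 genes, and a gene was called at an adjusted p under 0.05 and a log2 fold change beyond 0.6. In the dilated libraries 221 genes, or 1.73%, were called, 172 higher (1.35%) and 49 lower (0.383%). In the constricted libraries 2 genes, or 0.0156%, were called, and 676 had an unadjusted p under 0.05. Each library is a separate pool of irises, and the 2 comparisons share the control libraries. The calls depended on single libraries. Without control library 2 or 3, 38 and 22 genes were called in the dilated comparison, and without dilated library 1, 137. The last fit leaves 1 dilated library, which is assumed to vary like the libraries of the other groups. In the constricted comparison edgeR called 0 genes without control library 2 or 3, where 400 and 368 had an unadjusted p under 0.05, and 1 to 5 genes without one of the constricted libraries. With the series of library numbers (2 to 4, 13, and 15 to 18) as a block, 647 and 22 genes were called in the dilated and constricted comparisons. Without the nuclei whose barcode occurred in another library, 217 and 2 were called. Of the 221 genes, 20 were called in every fit that left out 1 library. The dilated and control libraries did not overlap for 28.4% of all tested genes and the constricted and control libraries for 10.7%.

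Markers of endothelial cells moved with dilation in the stroma 2 sums. The 5 tested of the 7 endothelial markers summed to 688 and 886 CPM in the dilated libraries, against 329, 276 and 249 CPM in controls and 367, 272 and 199 CPM in constricted libraries. *Cldn5*, a tight junction gene, was at 373 and 631 CPM against 99.1, 105 and 132 CPM in controls, and *Erg*, an ETS transcription factor gene, was at 58.5 and 23.4 CPM against 6.04, 7.51 and 4.25 CPM. Both were called higher, with log2 changes of 2.20 ± 0.34 (edgeR adjusted p = 0.00889) and 2.85 ± 0.56 (edgeR adjusted p = 0.0234), in 3 and 1 of the 5 fits that left out 1 library. *Pecam1*, *Flt1* and *Emcn* were tested and not called. *Flt1* was above all controls in both dilated libraries, at 172 and 126 CPM against 104, 87.0 and 43.6 CPM. Its log2 change was 1.02 ± 0.34 (edgeR adjusted p = 0.210). *Pecam1* was at 26.7 and 30.4 CPM against 45.9, 19.7 and 14.4 CPM, and *Emcn* at 57.7 and 75.3 CPM against 73.7, 56.3 and 54.1 CPM. Of the lists of other types, the trabecular meshwork list was the only further one with a called member, *Edn3*. Its tested markers summed to 590 and 1400 CPM in the dilated libraries, against 392, 343 and 304.5 CPM in controls. They summed to 325, 650 and 783 CPM in constricted libraries. Tested sphincter 2 markers summed to 355 and 491 CPM when dilated, against 342, 206 and 201 CPM in controls. Tested erythrocyte markers were at 33.4 and 38.55 CPM against 25.4, 27.2 and 20.1 CPM. The remaining sums did not lie on 1 side of all controls in both dilated libraries. Among these, tested dilator muscle markers summed to 246 and 211 CPM when dilated, against 239, 121 and 143 CPM in controls. The marker lists do not hold *Btg2* and *Slc26a4*, which the paper reports as induced by dilation in dilator muscle. Both were called higher in the dilated stroma 2 sums. The part of endothelial RNA, or of RNA of the dilator muscle or any other type, in the calls on dilation was not tested.

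The marker genes themselves passed in neither comparison. *Tfap2b* was at 2552 and 2453 CPM in the dilated libraries, a log2 change of −0.07 ± 0.19 (SE, adjusted p = 0.960), and at 3343, 2295 and 2544 CPM in the constricted ones. *Glis1* was at 1524 and 759 CPM when dilated and at 1156, 712 and 593 CPM when constricted, with −0.73 ± 0.26 (adjusted p = 0.754) in the latter. *Dkk2* had 0.55 ± 0.19 when dilated (adjusted p = 0.236) and *Pdgfra* −0.09 ± 0.31 (adjusted p = 0.970). All 3 constricted libraries of *Glis1* lay below every control library, beside the 10.7% of all tested genes without overlap. A p that misses the threshold does not show that a level stayed the same.

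Of the 128 set apart genes, all of which were tested, 5 were called higher and 11 lower in the dilated libraries and 1 higher in the constricted ones, beside 1.35%, 0.383% and 0.0156% of all tested genes. Their median log2 change when dilated was −0.30, against 0.0085 over all genes tested. The set was chosen for high levels in the same control libraries, so this direction is not read further. The lower genes included *Lypd1*, for a modulator of nicotinic acetylcholine receptors, with a log2 change of −2.17, which was called in 2 of 5 fits that left out 1 library. They also included *Adra1b*, at 96.8 and 92.9 CPM against 219, 258 and 231 CPM in controls, a log2 change of −1.28 ± 0.26 (adjusted p = 0.0261). *Hgf* was at 325 and 386 CPM, a log2 change of −0.90 ± 0.20 (adjusted p = 0.0418). *Hgf* was called in none of the 5 fits that left out 1 library. *Edn3* was at 294 and 579 CPM, a log2 change of 1.63 ± 0.35 (adjusted p = 0.0367), and was called in 1 of 5 fits that left out 1 library. In the constricted libraries *Adra1b* was at 211, 160 and 97.1 CPM and *Hgf* at 363, 524 and 412 CPM. *Lypd1* was at 68.4, 150 and 52.5 CPM there and *Edn3* at 212.5, 327 and 512 CPM. For these 4 genes every constricted library lay on the same side of all controls as the dilated ones, and none was called on constriction. These shifts are therefore not described as particular to dilation. *Col12a1* was called higher in both treatments, at 234 and 248 CPM when dilated and 246, 252 and 354 CPM when constricted against 120, 86.6 and 91.4 CPM in controls. Its log2 change was 1.35 ± 0.20 (adjusted p = 0.00763) and 1.55 ± 0.19 (adjusted p = 0.0149), and the dilated call was kept in 3 of 5 fits that left out 1 library.

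**Figure D5:**
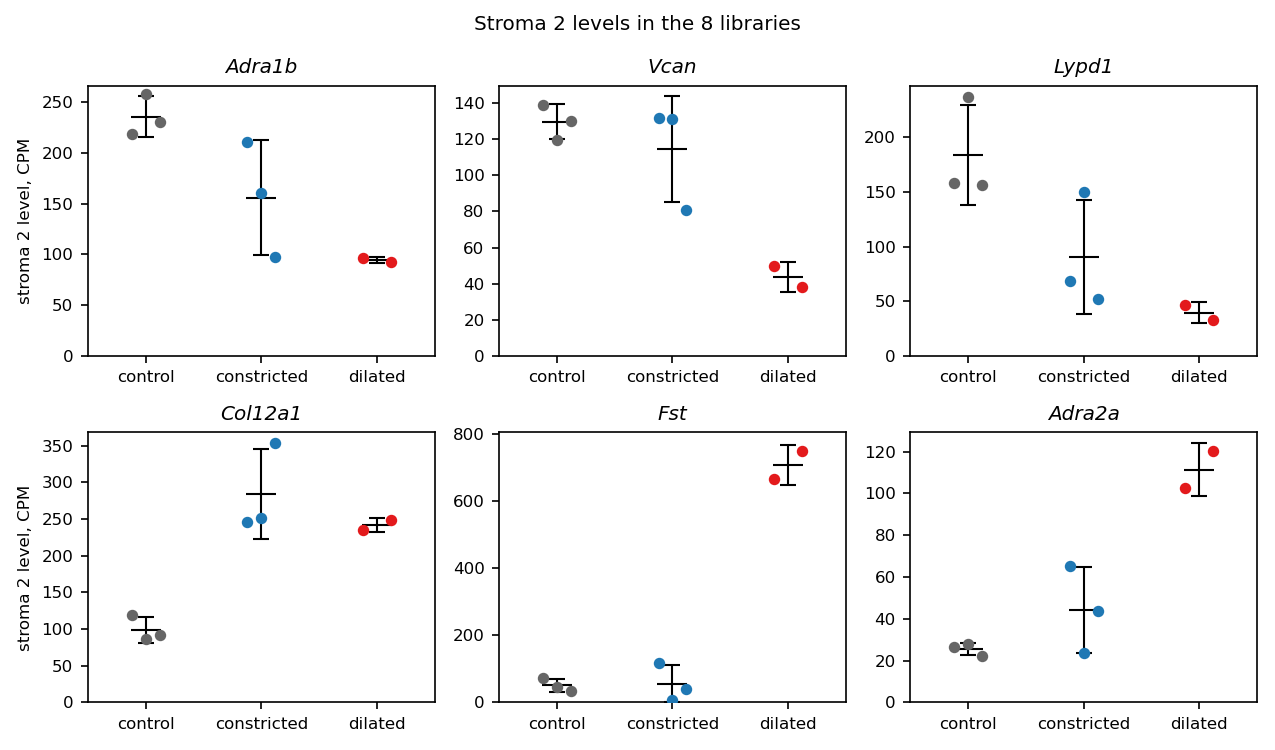
Levels of *Adra1b*, *Vcan*, *Lypd1*, *Col12a1*, *Fst* and *Adra2a* in stroma 2, in CPM; each point is 1 library, and lines and bars are the mean and SD of the 3 control, 3 constricted and 2 dilated libraries. The dilated libraries lie below all control libraries for the top 3 genes and above them for the bottom 3.

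Genes of the matrix lists moved in both directions on dilation. Beside the 1.35% of all tested genes called higher and 0.383% called lower, of 44 tested proteoglycan and matrix glycoprotein genes, 3 were called higher and 2 lower. *Thbs1*, for the matricellular protein thrombospondin 1, was at 167 and 118 CPM against 9.67, 7.19 and 3.96 CPM in controls, a log2 change of 4.55 ± 0.33 (adjusted p = 8.8e-05). *Vcan* was at 49.6 and 38.0 CPM against 139, 119 and 130 CPM, a log2 change of −1.50 ± 0.23 (adjusted p = 0.00763). Of 21 basement membrane genes tested, 2 were called higher. The TGF-beta and BMP list is not a matrix list, and of its 32 tested genes 1 was called higher, *Fst*. *Fst*, for follistatin, which binds activins, was at 664 and 748 CPM against 71.3, 45.7 and 34.8 CPM, a log2 change of 3.93 ± 0.55 (adjusted p = 0.00542), and was called in 4 of 5 fits that left out 1 library. Of 23 collagen genes tested, 2 were higher and 1 lower, and *Col8a1* was at 412 and 308 CPM against 64.1, 76.6 and 67.9 CPM, a log2 change of 2.40 ± 0.18 (adjusted p = 9.8e-05). Of 38 proteases and inhibitors tested, 4 were higher. *Timp3*, a metalloproteinase inhibitor gene, was at 261 and 208 CPM against 89.4, 66.3 and 61.7 CPM. Among the called genes given here with their levels, *Vcan* was lower and the others were higher in both dilated libraries than in every control library. This stands beside the 28.4% of all tested genes without overlap. *Postn* and *Col26a1* were the other genes of the matrix lists called lower.

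*Adra2a* rose to 102 and 120 CPM when dilated, against 26.6, 27.8 and 22.4 CPM in controls, a log2 change of 2.16 ± 0.29 (adjusted p = 0.00379), so of the alpha adrenergic receptor genes *Adra1b* fell and *Adra2a* rose on dilation. In the constricted libraries *Adra1b* was below all controls too, without being called, and *Adra2a* was at 65.0, 23.7 and 43.9 CPM. *Sema3g*, a semaphorin gene, was at 96.8 and 146 CPM against 37.5, 26.3 and 35.7 CPM, a log2 change of 1.94 ± 0.23 (adjusted p = 0.00294). Of the 44 list or set apart genes called on dilation, *Adra2a*, *Col8a1*, *Sema3g*, *Thbs1* and *Timp3* were among the 6 called in each fit that left out 1 library. *Adra1b* was called in 1 of those 5 fits, with an adjusted p of up to 0.131, and *Vcan* in 4. On constriction, *Wnt2* was the other gene called. It was called in 3 of 6 fits that left out 1 library, as was *Col12a1* in that comparison. *Wnt2* was at 37.6, 34.4 and 47.2 CPM against 6.04, 4.69 and 6.79 CPM in controls, a log2 change of 2.76 ± 0.31 (adjusted p = 0.0124).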

How the data were processed

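Single nuclei were profiled with 10x Genomics Chromium 3' v3 libraries. The authors aligned the reads, introns included, to mm10 with Cell Ranger 3.1.0, kept nuclei by mitochondrial share and by number of transcripts, clustered them with Seurat and deposited UMI counts per gene and nucleus, with a cell type and the percent of mitochondrial transcripts for each nucleus. The deposited counts, without normalization, were used as they stand. The stated limits of 500 and 6000 match the genes detected per nucleus, not the UMIs. No doublet removal is named in the sources used here, and Scrublet as in scanpy 1.11.5 marked 428 of 34357 nuclei (1.246%), which were kept except in an alternative.

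For each control library, UMIs were added up over the nuclei of a type and scaled to 1000000 (CPM). A gene was called set apart at 50 CPM or more and 4 times every other type. Where the next type had no UMI, 3 counts were to stand in its place. Intervals are 95% exact intervals of a ratio of counts and cover counting error only. Named genes were the markers, the 15 largest ratios, set apart members of the lists and the largest differences from stroma 1. Members, lists and the rules for naming genes were chosen with earlier results of these data known. *Foxd1*, *Tcf21*, *Twist2* and the genes just outside a limit were chosen after their values were seen.

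Conditions were compared with edgeR 4.0.16 (R 4.3.3) on summed counts over all 8 libraries with TMM scaling, filterByExpr and no covariate, which was checked on simulated data. DESeq2 1.42.0 was an alternative. Leaving out nuclei with shared barcodes, the nucleus with the most UMIs of a gene, or doublets from pair correlations was chosen after seeing the data. Replicate numbers did not pair the libraries. Sources used here do not assign the processing batches to libraries. Gene positions are from GENCODE models of mm10 and promoter sequence from RefSeq. Some genes are not reported here.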

Additional observations from a re-analysis of the deposited data

How the results depend on the processing

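The 128 set apart genes numbered 119 to 129 when 1 control library was left out and 119 to 178 under 7 further alternatives, the highest without leukocytes and endothelial cells as comparators. They numbered 321 with no minimum other than 3 UMIs, 60 at a minimum of 200 CPM, 69 at 8 times and 233 at 2 times. Over 59 named genes and 10 alternatives, 524 of 590 ratios stayed within the spread between libraries, 66 moved and 0 reversed, and 21 ratios of *Dkk2*, *Adamts2*, *Adgrl3*, *Epha7* and *Pde3a* were below 2 on the log2 scale, the lowest 1.12 for *Dkk2*. The 307 overdispersed genes were 60 at a minimum of 300 CPM, where fewer genes are tested, and 298 without doublets.

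The 221 genes called on dilation were 689 with no filter, 647 with the library series as a block, and 22 to 218 when 1 library was left out. DESeq2 gave 285. The 2 genes called on constriction were 102 with no filter, 22 with the series as a block, 5 without doublets, 5 with only the 2 groups fitted, 24 with DESeq2 and 0 to 5 when 1 library was left out. Other causes of these shifts were not tested. With a replicate block, 320 genes were called on dilation, 208 of them among the 221, and 17 on constriction. Libraries of equal number had correlations of their deviations from −0.018 to 0.446, so not every number pairs them, and the block is given for completeness. Libraries of different groups within one series of numbers had correlations from 0.135 to 0.453. Paired by number, the share of nuclei differed by −1.88 and −0.882 percentage points, lower in 3 of 3 and 2 of 2 pairs, with exact permutation p = 0.25 and 0.5, the smallest p that so few pairs allow. When 1 library was left out, the difference in share ran from −2.78 to −1.01 points on constriction and from −2.65 to −0.882 on dilation. Depth limits the low genes and the comparisons with the 149 endothelial and 193 leukocyte nuclei.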
